A study of Mus musculus with 12 samples.

Results

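The genes described here are 10 inflammatory chemokine and cytokine genes that fibroblasts can make: Cxcl1, Cxcl2, Cxcl5, Cxcl10, Ccl2, Ccl7, Il6, Lif, Il11 and Csf3. They were chosen by name out of 17097 genes that have a probe set of their own on the array, and each is read from 1 probe set, that with the highest mean over the 12 arrays. The arrays measured RNA of interstitial lung fibroblasts. All mice carried GFP as a reporter of Pdgfra, the gene of PDGF receptor alpha, a receptor of mesenchymal cells. Lungs were digested with dispase 5 days after surgery, and 2000 GFP-positive cells per sample were sorted into a bright and a dim gate. Mice had sham surgery (SHAM), a partial pneumonectomy after which the remaining lung regrows (PNX), or a pneumonectomy in mice that also express a dominant-negative FGFR2, a mutant FGF receptor that blocks the normal one (PNX-dnFGFR). The promoter or cell type that drives the mutant receptor is not given in the sources used here, and there was no SHAM group with it, so PNX-dnFGFR differs from SHAM in both surgery and genotype. Each of the 6 groups, 3 conditions in 2 gates, has 2 arrays labelled as biological replicates. The labels leave unsaid if each replicate came from a single mouse or from several, and p-values measure only the spread between these samples, which may be technical.

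Chemokines are small secreted proteins that steer leukocytes along a gradient. Cxcl1, Cxcl2 and Cxcl5 bind the receptor CXCR2 of neutrophils, Cxcl10 is induced by interferon and attracts T cells through CXCR3, and Ccl2 and Ccl7 attract monocytes through CCR2. Il6, Lif and Il11 signal through receptors that share the gp130 chain and activate STAT3, and Csf3 drives the production of neutrophils. In stromal cells most of these genes are switched on within hours by interleukin 1, tumour necrosis factor or microbial products, by way of the transcription factor NF-kB, and their messages are short-lived.

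Values are RMA signals on the log2 scale, so that a difference of 1 is a doubling of signal. A signal was taken to lie within the background range where it did not exceed the 95th percentile, on the same array, of 87 probe sets for sensory receptor genes, which fibroblasts do not use. That limit lay between 3.97 and 4.52. A gene was tested if 2 or more arrays had a signal over 5.10, the median of the whole table. Of the 10 genes, 6 passed, as 11073 of all 17097 genes did. Ccl2 and Lif lay above the background range on all 12 arrays and Cxcl10 on 11. The other genes that passed did so through bright arrays: Cxcl1 and Ccl7 with 5 bright arrays above the filter each, and Cxcl5 with 2. Il6, Il11 and Csf3 lay within the background range on all 12 arrays, and Cxcl2 on 10. Counts over the genes that passed are therefore not counts over all 10, and the fit with no filter is given beside them.

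**Figure D1:**
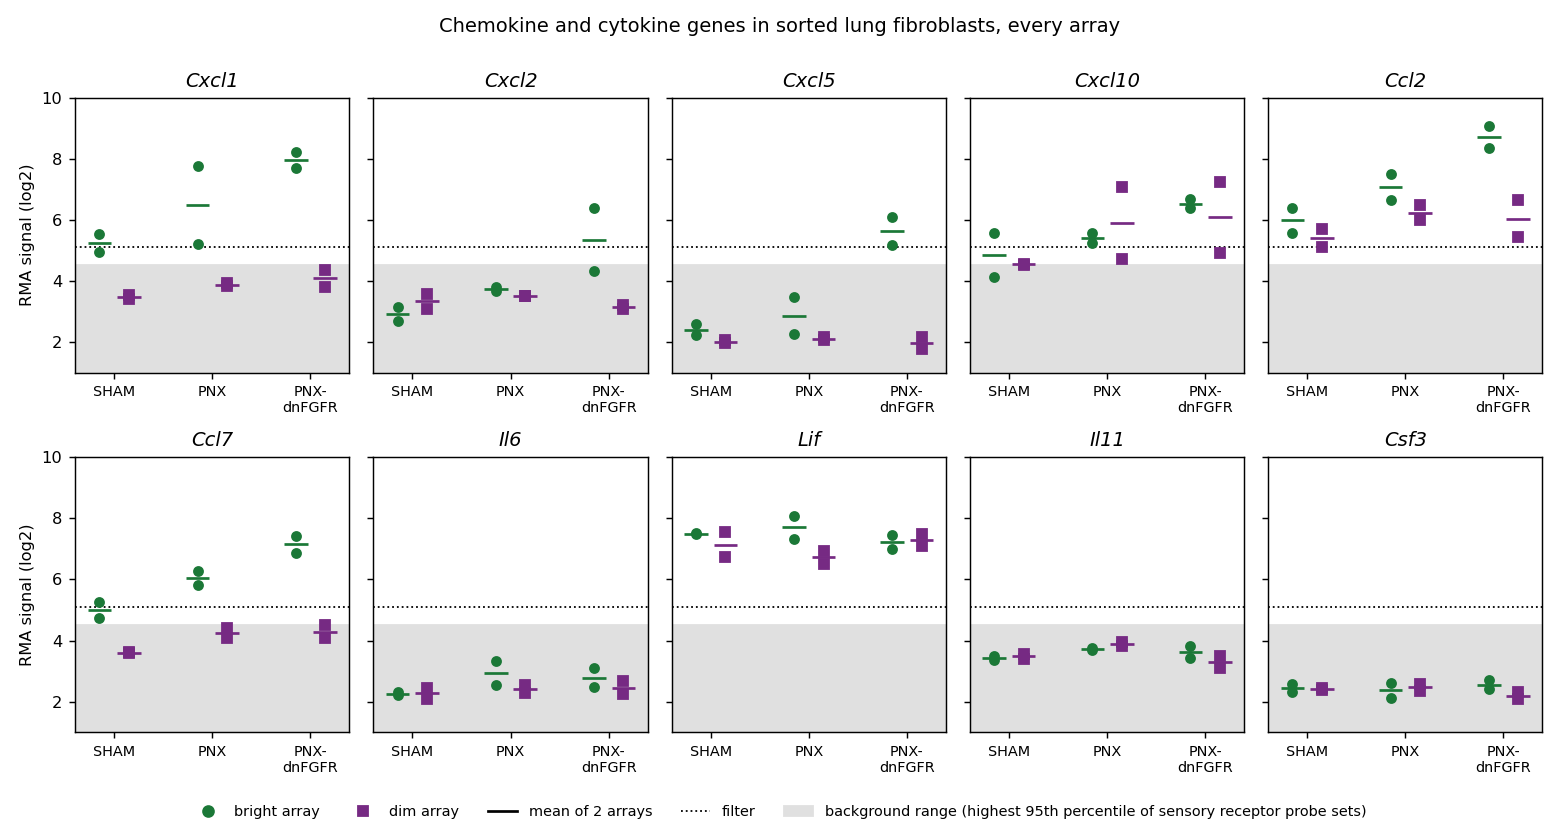
Signal of the 10 genes (log2, vertical axis) on every array, by condition (horizontal axis), with circles for bright arrays, squares for dim arrays and a bar for the mean of the 2 arrays of a group. The grey band reaches to 4.52, the highest background limit of any array, and the dotted line is the filter at 5.10. The group means of Cxcl1, Ccl2 and Ccl7 are highest on the bright PNX-dnFGFR arrays, and Il6, Il11 and Csf3 lie in the grey band throughout.

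The arrays fit the labelled cell type in part. The collagen genes Col1a1, at 11.82 to 12.46, and Col3a1, at 12.03 to 12.57, were high on all 12 arrays, and Col1a2 was at 5.74 to 7.80. Other fibroblast markers differed between the gates. Dcn was at 11.97 to 12.21 on bright and 5.72 to 8.48 on dim arrays. Lum was at 8.21 to 8.93 on bright arrays and within the background range, at 2.34 to 3.06, on dim arrays. Tcf21 went the other way, with 6.99 to 8.69 on bright and 10.22 to 10.80 on dim arrays. Pdgfra itself was lower on the arrays labelled bright, at 4.84 to 5.54, than on those labelled dim, at 6.66 to 7.13, so bright and dim stand here for the labels. Markers of other cells were present in both gates: Sftpc, a surfactant gene of alveolar type II cells, at 11.36 to 12.43, and Lyz2, a gene of macrophages and type II cells, at 9.77 to 11.31. In sorted cells measured in bulk, fewer cells that express a gene and less of its RNA per cell cannot be told apart.

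The 250 bases before the RefSeq start site were read for the members in the RefSeq promoter table (mouse build GRCm38.p6), which here covers 6 of the 10: Cxcl1, Cxcl2, Cxcl10, Il6, Lif and Il11. Promoters of Cxcl5, Ccl2, Ccl7 and Csf3 were not analysed here. They are given for 4 genes, from 5′ to 3′ along the gene, in lower case, with matches to the NF-kB consensus in capitals. Cxcl1 and Cxcl2 are shown because they are direct neighbours on chromosome 5 with different signals here, Cxcl10 because it carries the largest number of matches, and Il6 because it stayed in the background range.
Cxcl1, chr5:90890995-90891244, plus strand: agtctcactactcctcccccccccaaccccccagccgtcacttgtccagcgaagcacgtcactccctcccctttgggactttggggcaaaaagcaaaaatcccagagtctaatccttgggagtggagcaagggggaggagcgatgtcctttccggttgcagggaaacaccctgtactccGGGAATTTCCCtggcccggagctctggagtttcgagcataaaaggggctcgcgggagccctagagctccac
Cxcl2, chr5:90903649-90903898, plus strand: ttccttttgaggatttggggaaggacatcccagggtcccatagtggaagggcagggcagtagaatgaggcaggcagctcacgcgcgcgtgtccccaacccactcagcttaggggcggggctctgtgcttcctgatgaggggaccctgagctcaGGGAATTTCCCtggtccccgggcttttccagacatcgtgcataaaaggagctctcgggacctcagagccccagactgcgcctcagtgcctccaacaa
Cxcl10, chr5:92348890-92349139, minus strand: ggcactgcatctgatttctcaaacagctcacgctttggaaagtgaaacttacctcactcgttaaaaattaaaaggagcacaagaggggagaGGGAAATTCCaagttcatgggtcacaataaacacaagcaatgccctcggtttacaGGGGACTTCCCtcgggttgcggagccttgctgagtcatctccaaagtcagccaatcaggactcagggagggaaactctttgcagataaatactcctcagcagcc
Il6, chr5:30012864-30013113, plus strand: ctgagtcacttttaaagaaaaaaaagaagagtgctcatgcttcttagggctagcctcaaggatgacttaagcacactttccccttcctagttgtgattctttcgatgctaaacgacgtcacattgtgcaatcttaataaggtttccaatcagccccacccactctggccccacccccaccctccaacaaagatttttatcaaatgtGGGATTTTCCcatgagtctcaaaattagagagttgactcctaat

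The NF-kB consensus, searched on both strands with overlapping matches joined, was found in 5 of the 6 genes in the table, against 7.25% of 32851 promoter windows of the same length. Cxcl1 and Cxcl2 hold the same run, GGGAATTTCCC, ending 61 and 87 bases before the start site. Cxcl10 holds GGGAAATTCC and GGGGACTTCCC, Il6 holds GGGATTTTCC ending 35 bases before the start, and Lif holds GGGACGCCCC ending 169 bases before it. The AP-1 motif TGANTCA was in 4 of the 6 genes (Cxcl10, Il6, Lif and Il11, the last in its second promoter window) and in 6.75% of all windows. The interferon response motif TTTCNNTTTC was in Cxcl10 alone of the 6, and in 2.98% of all windows. The STAT motif TTCNNNGAA and TATAAA were in none of these windows, against 7.02% and 12.4% of all. These are matches of letters, not measured binding sites.

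The comparison of the gates came first in the design: do bright and dim fibroblasts differ in these genes? As the mean over the 3 conditions, Cxcl1, Cxcl5, Ccl2 and Ccl7 were higher on bright arrays. These are chemokine genes for neutrophils (Cxcl1, Cxcl5) and monocytes (Ccl2, Ccl7). In the same limma test 28.5% of all genes were called higher in bright cells at an adjusted p below 0.05, so a call in this direction is common among all genes. With no filter the same 4 of all 10 were called, against 19.3% of genes.

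Ccl7 had the smallest adjusted p. On bright arrays its signal was 5.27 and 4.73 in SHAM, 5.80 and 6.28 in PNX and 6.87 and 7.43 in PNX-dnFGFR. On dim arrays it was 3.58 and 3.63, 4.09 and 4.42, and 4.50 and 4.08. Every bright array was above every dim array. The mean difference was 2.01 ± 0.15 (SE, 6 against 6 arrays, limma adjusted p = 7.6e-06), a 4.04-fold higher signal. Since 4 of the 6 dim values were within the background range, the size of this difference is uncertain, and once lower values were raised to the filter it was 1.02 (adjusted p = 0.00012).

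Cxcl1, also known as KC, had 5.55 and 4.96 on the bright SHAM arrays, 7.76 and 5.22 on the bright PNX arrays and 8.21 and 7.69 on those of PNX-dnFGFR. On the dim arrays it lay at 3.41 and 3.55, 3.83 and 3.93, and 4.36 and 3.80, all within the background range. No dim array reached a bright array, and the 2 bright PNX arrays were far apart from each other. The mean difference was 2.75 ± 0.37 (limma adjusted p = 0.00027). It was 1.49 (adjusted p = 0.0093) with values below the filter set to it.

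Ccl2, also called MCP-1, is, with Lif, a member that can be compared in both gates without a background limit. Its bright signals were 6.39 and 5.57 in SHAM, 7.51 and 6.64 in PNX and 8.36 and 9.08 in PNX-dnFGFR. Its dim signals were 5.70 and 5.13, 5.98 and 6.50, and 6.65 and 5.43. The gates overlapped in SHAM but not in PNX or PNX-dnFGFR. The mean difference was 1.36 ± 0.28 (limma adjusted p = 0.0029), or 2.57-fold.

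Cxcl5, also called LIX, was seen above the background range on the 2 bright PNX-dnFGFR arrays, with 6.08 and 5.17. The other 4 bright arrays had 2.57, 2.22, 3.47 and 2.26 and the dim arrays 1.78 to 2.15. The mean difference of 1.60 ± 0.22 (limma adjusted p = 0.00033) thus compares 1 expressed group with signals within background, and with values below the filter set to it the difference was 0.17 (adjusted p = 0.32), so that the call was lost.

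Cxcl10 and Lif did not pass in this comparison. Cxcl10 had 5.56 and 4.14, 5.55 and 5.24, and 6.68 and 6.38 on the bright arrays of SHAM, PNX and PNX-dnFGFR, and 4.56 and 4.54, 4.72 and 7.07, and 7.23 and 4.93 on the dim arrays. The gates overlapped, with a difference of 0.09 ± 0.49 (limma adjusted p = 0.90) that turned negative (-0.03) with values below the filter set to it. In the dim gate 1 array of PNX and 1 of PNX-dnFGFR stood more than 2 log2 units above the other array of its group. Lif, the gene of leukemia inhibitory factor, had the narrowest range of the 6: 7.49 and 7.51, 7.32 and 8.08, and 7.46 and 7.00 on bright arrays, and 6.73 and 7.54, 6.95 and 6.51, and 7.49 and 7.09 on dim arrays. Its gates overlapped, with a difference of 0.43 ± 0.19 (limma adjusted p = 0.093), which passed at 0.039 without bright PNX replicate 1 and at 0.034 without dim SHAM replicate 2. Lif has 3 probe sets. That with the next highest mean ran from 5.64 to 7.01, and the third, at 2.27 to 3.19, stayed in the background range, so the probe sets do not give 1 picture of its level.

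The cytokine genes Il6, Il11 and Csf3 gave no signal that could be told from background. Il6, the gene of interleukin 6, ran from 2.20 to 3.34 on bright and 2.08 to 2.67 on dim arrays, Il11 from 3.37 to 3.82 and 3.09 to 3.94, and Csf3, the granulocyte factor, from 2.13 to 2.69 and 2.10 to 2.58. In the fit with no filter limma called none of the 3 in any of the 16 comparisons. Unadjusted p was below 0.05 for Il6 in PNX against SHAM in the bright gate (0.69, adjusted p = 0.63) and for Il11 in 3 comparisons, with PNX-dnFGFR against PNX in the dim gate at -0.58 (adjusted p = 0.53). Array signals in this range do not show that the genes were silent.

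Within single conditions, the gates differed in more of these genes in PNX-dnFGFR than in SHAM by count. In SHAM, limma called Ccl7 higher in bright cells (1.39 ± 0.27, adjusted p = 0.0065), where 11.5% of all genes were called higher, and 7.14% with no filter, which also called Ccl7 alone. In PNX it called Cxcl1 (2.61 ± 0.64, adjusted p = 0.021) and Ccl7 (1.79 ± 0.27, adjusted p = 0.0017), against 11.4% of all genes and 7.15% with no filter, where both were called again. In PNX-dnFGFR it called Cxcl1 (3.87 ± 0.64, adjusted p = 0.0017), Cxcl5 (3.66 ± 0.39, adjusted p = 0.00015), Ccl2 (2.68 ± 0.48, adjusted p = 0.0025) and Ccl7 (2.86 ± 0.27, adjusted p = 8.4e-05), against 21% of all genes. With no filter Cxcl2 joined these (2.21 ± 0.50, adjusted p = 0.011), against 13.6%. Several of these calls rest on where the background lies or on single arrays. With values below the filter set to it, Ccl7 in SHAM was at 0.08 (adjusted p = 0.84), Cxcl1 in PNX at 1.39 (adjusted p = 0.17) and Cxcl5 in PNX-dnFGFR at 0.52 (adjusted p = 0.12). Leaving out bright SHAM replicate 1 put Ccl7 in SHAM at 1.12 (adjusted p = 0.052), and leaving out dim PNX replicate 1 or 2 put Cxcl1 in PNX at adjusted p = 0.09 or 0.089. Leaving out bright PNX replicate 1 put Cxcl1 in PNX at 1.33 and kept the call.

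**Figure D2:**
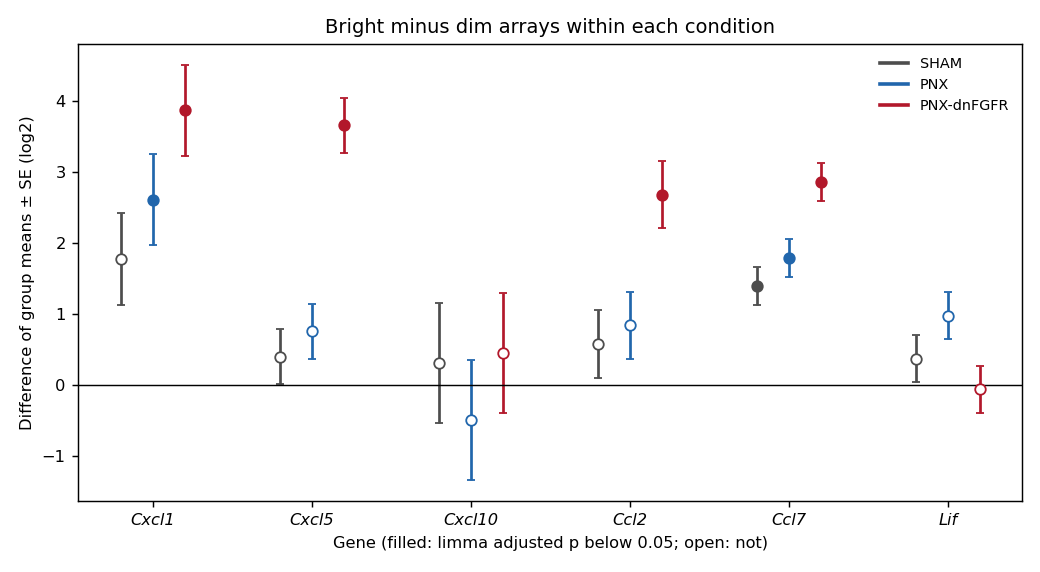
Bright minus dim difference of group means (log2, vertical axis) for the 6 tested genes (horizontal axis) in SHAM, PNX and PNX-dnFGFR, with bars for the standard error of the fit. Filled points passed the limma test and open points did not. For Cxcl1, Cxcl5, Ccl2 and Ccl7 the PNX-dnFGFR point is the highest of the 3, and Lif and Cxcl10 have no filled point.

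Whether the gate difference itself changed with the condition was tested as a difference of differences. No member passed with limma in any of the 3 tests. Between PNX-dnFGFR and SHAM, 0 members were called, against 0.0993% of all genes called higher, and 4 had an unadjusted p below 0.05, all with a larger gate difference in PNX-dnFGFR, against 6.46% of all genes. Cxcl5 had 3.26 ± 0.55 (adjusted p = 0.076), Ccl7 1.47 ± 0.38 (adjusted p = 0.17), Ccl2 2.11 ± 0.68 (adjusted p = 0.25) and Cxcl1 2.09 ± 0.91 (adjusted p = 0.38). With values below the filter set to it, Ccl7 passed, at 1.97 (adjusted p = 0.034), and Cxcl5, within the background range in all groups but bright PNX-dnFGFR, was at 0.52 (adjusted p = 0.55). Cxcl5 passed, at adjusted p = 0.02, when bright PNX replicate 1 or 2 was left out. Between PNX-dnFGFR and PNX, 0 members and 0% of all genes were called higher, and 3 members (Cxcl5, Ccl2 and Ccl7) had an unadjusted p below 0.05 against 3.77% of genes. There Cxcl5 had 2.91 ± 0.55 (adjusted p = 0.45), which passed at 0.025 without bright PNX replicate 1 and was at 0.52 (adjusted p = 0.67) with values below the filter set to it. Between PNX and SHAM, 0 members and 0% of all genes were called higher, and 0 members had an unadjusted p below 0.05, against 2.35% of genes.

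The conditions were then compared within the bright gate. Relative to SHAM, the bright cells of PNX-dnFGFR lungs had higher Cxcl1, Cxcl5, Ccl2 and Ccl7. Here the count stands against few calls overall: limma called 2.6% of all genes higher. Without the filter, the call was kept for Cxcl5, Ccl2 and Ccl7, was lost for Cxcl1 (adjusted p = 0.055) and was gained for Cxcl2, against 1.61% of all genes. The comparison shares its bright PNX-dnFGFR arrays with the gate comparison above, so the high signals of these 2 arrays enter both.

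Ccl2 rose by 2.73 ± 0.48 (2 against 2 arrays, limma adjusted p = 0.02), or 6.65-fold, and both PNX-dnFGFR arrays lay above both SHAM arrays. Ccl7 rose by 2.15 ± 0.27 (adjusted p = 0.0094), or 4.44-fold. Cxcl1 rose by 2.70 ± 0.64 (adjusted p = 0.046), or 6.48-fold. Cxcl5 rose by 3.22 ± 0.39 (adjusted p = 0.0085) from signals within the background range, and the call was lost with values below the filter set to it (0.52, adjusted p = 0.22). For Ccl7 and Cxcl1 that setting gave 1.97 (adjusted p = 0.0028) and 2.62 (adjusted p = 0.041). For all 4 genes the arrays of the 2 groups did not overlap, as was so, with PNX-dnFGFR higher, for 32% of all genes tested.

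Cxcl2, the neighbour of Cxcl1, was highest on the same 2 arrays, but clearly above background on replicate 2 alone. Its signal was 4.34 and 6.37 on the bright PNX-dnFGFR arrays, 2.70 and 3.15 on the bright SHAM arrays, 3.66 and 3.79 on the bright PNX arrays and 3.08 to 3.58 on the dim arrays. All but the 2 PNX-dnFGFR values were within the background range. Replicate 1, at 4.34, was just above the limit of 4.23 on its array and below the filter, so the Cxcl2 difference rests mainly on replicate 2. In the fit with no filter the difference from SHAM was 2.43 ± 0.50 (limma adjusted p = 0.039). Cxcl10 had 1.68 ± 0.85 (adjusted p = 0.28) and Lif had -0.27 ± 0.33 (adjusted p = 0.68), so neither passed.

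With 2 arrays a group these calls depend on single arrays. Without bright SHAM replicate 2, the lower SHAM array for all 4 genes, 0 of the 4 were called, with Ccl2 at 2.32 (adjusted p = 0.15), Ccl7 at 1.88 (adjusted p = 0.081), Cxcl1 at 2.40 (adjusted p = 0.24) and Cxcl5 at 3.05 (adjusted p = 0.076). Without bright PNX-dnFGFR replicate 1 Ccl2 had adjusted p = 0.052 and Cxcl1 0.21, and without replicate 2 they had 0.11 and 0.15. Cxcl1 was also lost, at adjusted p = 0.10, without bright SHAM replicate 1 and, at 0.061 to 0.070, without any 1 of the 6 dim arrays. All these fits kept the direction.

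PNX lay between the other conditions for Ccl2 and Ccl7 in the bright gate, but no step passed the threshold. From SHAM to PNX limma called 0 members, against 0.00903% of all genes called higher, and 2 members had an unadjusted p below 0.05, against 4.69% of genes. These were Ccl7, with 1.04 ± 0.27 (adjusted p = 0.40), and Ccl2, with 1.09 ± 0.48 (adjusted p = 0.60). For Cxcl1 the step was 1.24 ± 0.64 (adjusted p = 0.66) and rested on bright PNX replicate 1. It was -0.04 (adjusted p = 0.99) without that array and 2.51 (adjusted p = 0.048) without replicate 2. For Cxcl5 it was 0.46 ± 0.39 (adjusted p = 0.80), and -0.14 without bright PNX replicate 1. From PNX to PNX-dnFGFR limma called 0 members, against 0.00903% of all genes called higher, and 4 had an unadjusted p below 0.05, against 5.55% of genes. Cxcl5 had 2.76 ± 0.39 (adjusted p = 0.065), Ccl7 1.11 ± 0.27 (adjusted p = 0.15), Ccl2 1.64 ± 0.48 (adjusted p = 0.20) and Cxcl1 1.46 ± 0.64 (adjusted p = 0.39). Without bright PNX replicate 1 both Cxcl1 (2.73, adjusted p = 0.0087) and Cxcl5 (3.36, adjusted p = 0.0054) passed. Both bright PNX values of Cxcl5 lay within the background range, and with values below the filter set to it the step from PNX to PNX-dnFGFR over all arrays was 0.52 (adjusted p = 0.37) and that from SHAM to PNX was 0.

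**Figure D3:**
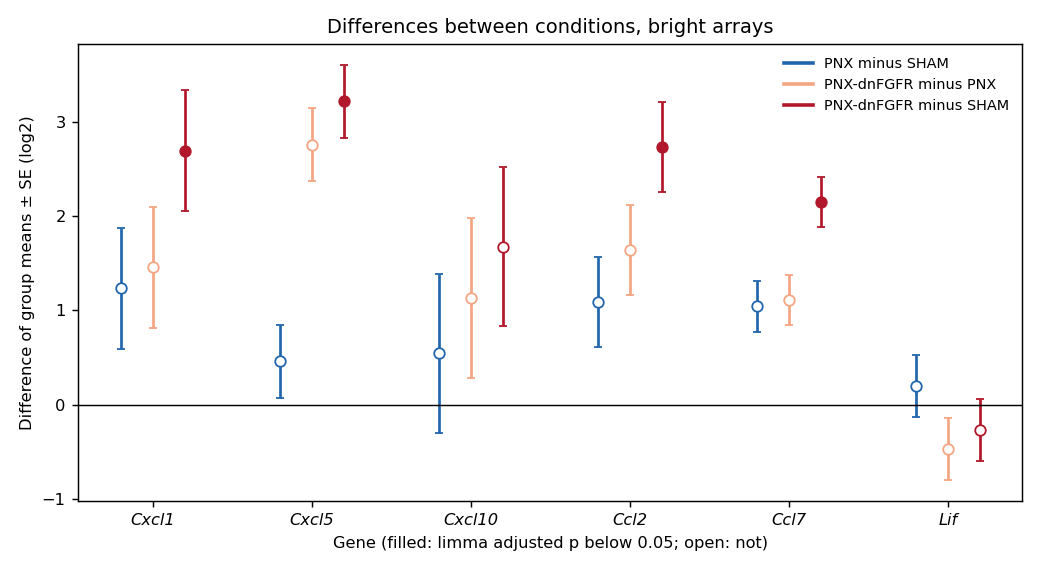
Differences between conditions in the bright gate (log2, vertical axis) for the 6 tested genes (horizontal axis), with standard errors of the fit. Filled points passed the limma test and open points did not. The filled points are PNX-dnFGFR minus SHAM for Cxcl1, Cxcl5, Ccl2 and Ccl7, and the PNX points lie lower and are open.

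In the dim gate no member was called between conditions. From SHAM to PNX limma called 0 members and 0.0271% of all genes higher, and 1 member, Ccl7, had an unadjusted p below 0.05, against 7.04% of genes. From PNX to PNX-dnFGFR it called 0 members and 0% of genes higher, and 0 members had an unadjusted p below 0.05, against 3.53% of genes. From SHAM to PNX-dnFGFR it called 0 members and 0.00903% of genes higher, and 1 member, again Ccl7, had an unadjusted p below 0.05, against 5.06%. Since Ccl7 lay within the background range on 4 of the 6 dim arrays and just above it on 2, no fold is given. Ccl2, which was well measured in the dim gate, differed by 0.83 ± 0.48 (adjusted p = 0.52) from SHAM to PNX and by 0.62 ± 0.48 (adjusted p = 0.75) from SHAM to PNX-dnFGFR, and dim PNX-dnFGFR replicate 2 lay between the 2 SHAM arrays. Cxcl10 differed by 1.53 ± 0.85 (adjusted p = 0.60) from SHAM to PNX-dnFGFR, and dim PNX-dnFGFR replicate 1 made most of it.

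As the mean over both gates, limma called Cxcl5 (1.59 ± 0.27, adjusted p = 0.037), Ccl2 (1.68 ± 0.34, adjusted p = 0.044) and Ccl7 (1.42 ± 0.19, adjusted p = 0.019) higher in PNX-dnFGFR than in SHAM, against 0.984% of all genes. With no filter Cxcl5 and Ccl7 were called, against 0.339%, and Ccl2 had adjusted p = 0.053. Cxcl5 was not called with values below the filter set to it (0.26, adjusted p = 0.39). Leaving out 1 array at a time gave 0 or 1 call, except without bright PNX replicate 1 or 2 or dim PNX-dnFGFR replicate 2; Ccl7 was lost without bright SHAM replicate 2 (adjusted p = 0.077), bright PNX-dnFGFR replicate 2 (0.07) or dim PNX-dnFGFR replicate 1 (0.063). From SHAM to PNX limma called 0 members and 0.0722% of all genes higher, and 2 members, Ccl2 and Ccl7, had an unadjusted p below 0.05, against 9.36% of genes. From PNX to PNX-dnFGFR it called 0 members and 0% of genes higher, and 2 members, Cxcl5 and Ccl7, had an unadjusted p below 0.05, against 5.4% of genes.

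Several markers of mesothelial cells, the lining cells of the lung surface, were lower on replicate 2 in bright SHAM and bright PNX, as some of these chemokine genes were. Not all markers were, and the order over all bright arrays differed. The 4 shown first were chosen after their values were seen. Upk3b had 7.39 and 4.46 in SHAM, 8.83 and 5.10 in PNX and 7.42 and 7.88 in PNX-dnFGFR. Lrrn4 had 5.80 and 4.71, 7.73 and 3.79, and 5.84 and 6.52. Wt1 had 3.29 and 2.72, 5.55 and 2.72, and 4.64 and 6.13, and Bnc1 had 3.41 and 2.35, 5.57 and 2.23, and 5.98 and 5.79. In SHAM and in PNX the lower array for these 4 markers, replicate 2, was also the lower array for Cxcl1, Cxcl5 and Ccl2. Ccl7 followed this in SHAM but not in PNX, where replicate 2 was the higher array. Upk3b and Lrrn4 were highest on bright PNX replicate 1. Wt1 and Bnc1 were highest on a bright PNX-dnFGFR array, as were Cxcl1, Cxcl5, Ccl2 and Ccl7. Upk1b had 7.66 and 7.56 in bright SHAM, 8.49 and 3.99 in bright PNX and 6.72 and 6.48 in bright PNX-dnFGFR, so that both PNX-dnFGFR arrays lay below both SHAM arrays (-1.01, adjusted p = 0.77). Krt19 had 7.39 and 8.04, 8.68 and 6.51, and 7.47 and 8.50, with replicate 2 the higher SHAM array. Of the 8 mesothelial markers, 7 were tested. Between PNX-dnFGFR and SHAM in the bright gate 0 were called, with Wt1 at 2.38 ± 0.77 (adjusted p = 0.10) and Bnc1 at 3.01 ± 0.84 (adjusted p = 0.07). The log2 of their summed signal was 10.61 to 11.01 in bright SHAM, 10.49 to 11.82 in bright PNX and 11.09 to 11.62 in bright PNX-dnFGFR. In the dim gate it was 10.98 to 11.04, 8.51 to 10.92 and 8.48 to 8.58. Upk1b had by far the highest signal of the markers in the dim SHAM sum. It had 10.66 and 10.67 in dim SHAM, 10.22 and 4.52 in dim PNX and 3.77 and 5.05 in dim PNX-dnFGFR. Wt1 and Bnc1 lay within the background range on every dim array and in bright SHAM, so the sizes of their differences are uncertain. Between bright and dim cells 4 of the 7 were higher as the mean over conditions: Nkain4 by 2.71, Bnc1 by 1.91, Lrrn4 by 1.72 and Wt1 by 1.67. The mesothelial marker Msln did not pass the filter, with at most 4.85 over the 12 arrays. The part of mesothelial cells in the chemokine signal was not tested.

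**Figure D4:**
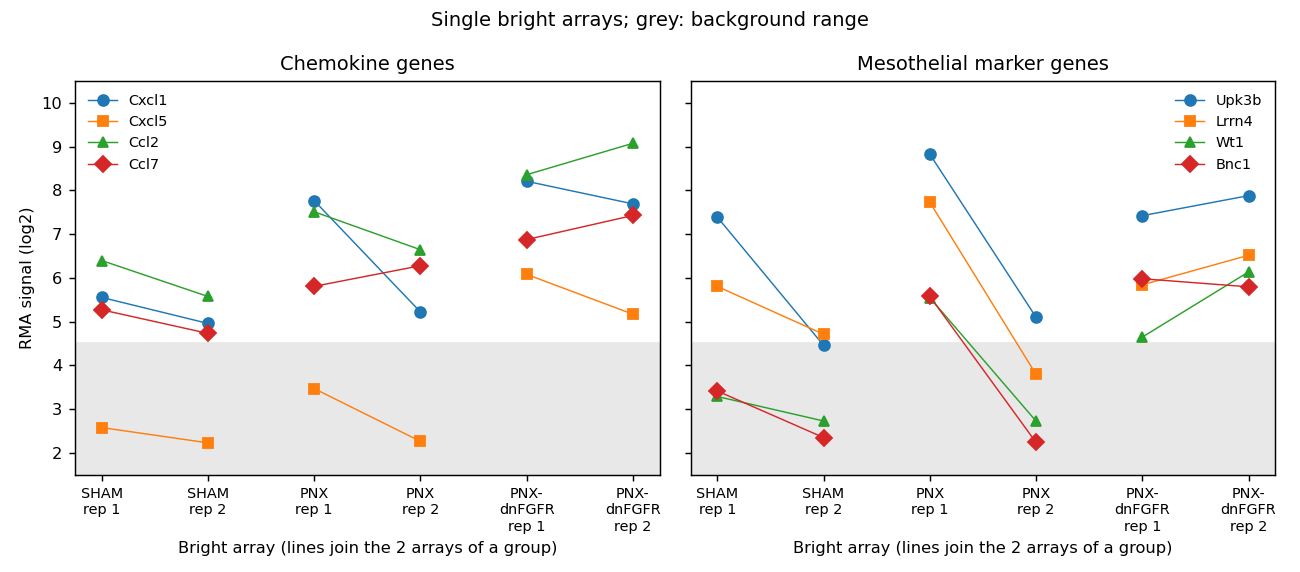
Signal (log2, vertical axis) of 4 chemokine genes and of 4 mesothelial marker genes on the 6 bright arrays (horizontal axis), with a line between the 2 arrays of a group and the background range in grey. On bright PNX replicate 2, Cxcl1 was at 5.22 where replicate 1 was at 7.76, and Upk3b was at 5.10 where replicate 1 was at 8.83.

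Leukocyte markers were followed because leukocytes make several of these chemokines. Of 12 macrophage and monocyte markers tested, Cd14, a co-receptor for endotoxin that stromal cells can also carry, was called higher in bright PNX-dnFGFR than in bright SHAM (2.15 ± 0.49, limma adjusted p = 0.042). Cd14 had 6.0 and 4.88 in bright SHAM, 6.63 and 5.15 in bright PNX and 7.43 and 7.74 in bright PNX-dnFGFR, and was the only one called in that comparison. It was also the only one higher in bright than in dim cells as the mean (1.52), whereas Lyz2 (-0.62) and Ptprc (-0.92), the pan-leukocyte gene CD45, were lower. Without a call, Marco had 4.30 and 4.68 in bright SHAM and 6.15 and 6.35 in bright PNX-dnFGFR, while Itgax had 6.80 and 5.94 against 5.50 and 5.34. The log2 of the macrophage markers' summed signal was 10.85 to 11.09 in bright SHAM, 10.69 to 11.03 in bright PNX and 10.73 to 10.93 in bright PNX-dnFGFR. In the dim groups it was 11.02 to 11.8, 10.7 to 11.68 and 11.32 to 11.34. Lyz2, also a gene of type II cells, had by far the highest signal of the markers in this sum. Of 5 neutrophil markers tested, 0 were called in either comparison, with S100a9 at 7.08 and 5.29 in bright SHAM and 6.90 and 6.66 in bright PNX-dnFGFR. The differences of the 5 between these bright groups ran from -0.11 to 2.73, with a median of 0.59. Mpo had the largest, with 4.21 and 3.66 in bright SHAM, 5.72 and 4.84 in bright PNX and 6.997 and 6.32 in bright PNX-dnFGFR. Its bright SHAM signals were at or near the background range, so the size of its difference is uncertain. The log2 of the summed signal of 10 neutrophil markers was 7.82 to 9.17, 7.81 to 9.68 and 9.15 to 9.42 in the bright groups, and 9.93 to 10.82, 7.39 to 9.31 and 8.84 to 9.66 in the dim groups. Of 7 lymphocyte markers tested, 5 were lower and 0 higher in bright cells as the mean, and Cd8a was lower in bright PNX-dnFGFR than in bright SHAM (-0.81 ± 0.18, adjusted p = 0.037). The part of leukocytes in the chemokine signal was not tested.

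The kind of mesenchymal cell also differed between the gates. All 9 adventitial fibroblast markers tested were higher in bright cells, among them Scara5 (6.14, adjusted p = 5.1e-08) and Serpinf1 (4.58, adjusted p = 2.4e-07), and in PNX-dnFGFR against SHAM in the bright gate 0 were higher and Scara5 was lower (-1.43, adjusted p = 0.043). Of 6 smooth muscle and pericyte markers, 3 were higher in bright cells, led by Kcnj8 (4.85, adjusted p = 1.5e-09), and 1 lower, and 0 were called between PNX-dnFGFR and SHAM there. Endothelial markers gave 1 higher and 3 lower of 8, and epithelial markers 0 of 9. Scara5, at 2.49 to 3.66, and Kcnj8, at 3.10 to 3.52, were within the background range on every dim array. The sizes of their gate differences are therefore uncertain. Some epithelial markers, among them Scgb1a1, were higher on replicate 2 than on replicate 1 in every bright group, and others were not. Scgb1a1 had 5.73 and 11.58 in bright SHAM, 6.85 and 10.58 in bright PNX and 6.19 and 11.19 in bright PNX-dnFGFR, while Sftpc was at 11.36 to 12.06 on these arrays. The part of these cells in the gate difference of the chemokine genes was not tested.

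The lists of related genes below were read in the same fit, and their counts stand against 28.5% of all genes called higher and 19.3% called lower in bright cells as the mean, and against 2.6% higher and 2.6% lower in PNX-dnFGFR against SHAM in the bright gate. The median difference over all genes tested was 0.05 and 0.02 in these comparisons. Among NF-kB pathway and target genes, 8 of 18 tested were higher and 3 lower in bright cells, with a median difference of 0.36. Saa3, an acute-phase gene, was higher by 3.38 ± 0.56 (adjusted p = 0.00093). Nfkbie, which encodes an NF-kB inhibitor that NF-kB itself induces, was higher by 1.84 ± 0.21 (adjusted p = 8.1e-05). Tnfaip3, the gene of the feedback inhibitor A20, was higher by 1.75 ± 0.19 (adjusted p = 6.3e-05), and Bcl3 and Sod2 by 0.65 each. Nfkbiz (-0.50), Tnip1 (-0.33) and Icam1 (-0.26) were lower. In PNX-dnFGFR against SHAM in the bright gate 2 of the 18 were higher and 0 lower, with a median difference of 0.74: Sod2, the mitochondrial superoxide dismutase, by 1.27 ± 0.16 (adjusted p = 0.0095) and Bcl3 by 0.78 ± 0.15 (adjusted p = 0.024). Lcn2, a neutrophil and stromal response gene, had 2.16 ± 0.74 (adjusted p = 0.13). As the mean over both gates, Sod2, Bcl3 and Saa3 were higher in PNX-dnFGFR than in SHAM. Saa3 stood out by its values in the dim gate, with 4.43 and 4.22 in SHAM, 11.39 and 8.34 in PNX and 11.14 and 9.55 in PNX-dnFGFR, against 10.16 to 12.34 on the bright arrays. The dim SHAM arrays were at or near the background range and the other 4 dim arrays far above it, but neither dim comparison passed on its own (5.54 ± 0.97, adjusted p = 0.11 for PNX and 6.02 ± 0.97, adjusted p = 0.19 for PNX-dnFGFR).

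**Figure D5:**
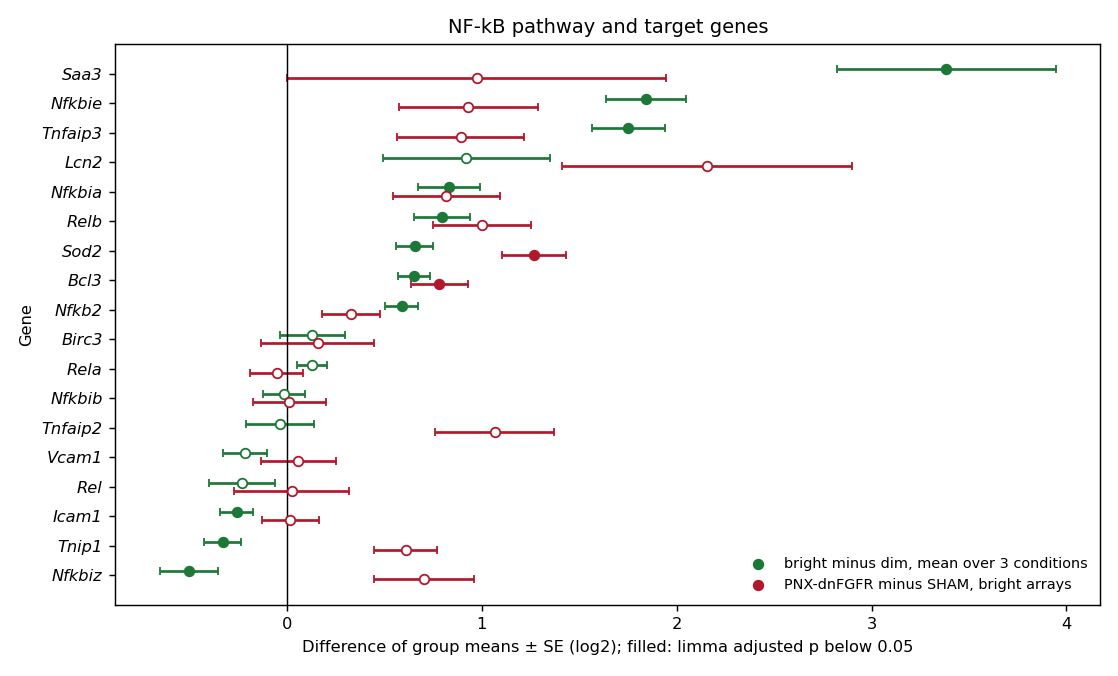
NF-kB pathway and target genes (vertical axis) with the difference between bright and dim cells as the mean over conditions and the difference between PNX-dnFGFR and SHAM in the bright gate (log2, horizontal axis), with standard errors. Filled points passed the limma test. Of the 18 genes, 8 have a filled point to the right for bright against dim, and Sod2 and Bcl3 have 1 for PNX-dnFGFR against SHAM.

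Chemokine and cytokine receptor genes differed in both directions between the gates. Of 7 tested, not all of them receptors of the 10 genes' products, 3 were higher and 2 lower in bright cells, with a median difference of -0.66. The scavenging receptors Ackr3 and Ackr2, which bind chemokines without G protein signalling, were higher by 2.66 ± 0.10 (adjusted p = 1.4e-07) and 2.28 ± 0.21 (adjusted p = 2.3e-05), and Il6st, the gp130 chain, by 0.24 ± 0.08 (adjusted p = 0.039). Ackr3 lay within the background range on every dim array, at 2.93 to 3.17, so the size of its difference is uncertain. Il6ra and Lifr, the specific receptor chains for interleukin 6 and LIF, were lower, with differences of -1.67 ± 0.13 (adjusted p = 6.9e-06) and -1.36 ± 0.13 (adjusted p = 2.9e-05). They were also the 2 receptors called in PNX-dnFGFR against SHAM in the bright gate, both lower, Il6ra with -1.09 ± 0.22 (adjusted p = 0.028) and Lifr with -0.93 ± 0.22 (adjusted p = 0.047), at a list median of -0.38. Il6ra had 9.10 and 9.22 in bright SHAM, 8.29 and 8.75 in bright PNX and 7.78 and 8.36 in bright PNX-dnFGFR, while the dim arrays held 9.98 to 10.60.

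Of 11 other inflammatory chemokine genes with a probe set, 5 passed the filter and were tested. In bright cells 4 of the 5 were higher and 0 lower, with a median difference of 2.05. Ccl8 and Ccl11 passed mainly through bright arrays, so this is not a count over all 11. Most of their dim signals were within the background range, and the sizes of their differences are uncertain. Ccl8, a monocyte chemokine related to Ccl2, was higher by 2.62 ± 0.41 (adjusted p = 0.00071), Ccl11, the eosinophil chemokine eotaxin, by 2.56 ± 0.33 (adjusted p = 0.00019), Cxcl16 by 2.05 ± 0.12 (adjusted p = 1.9e-06) and Cx3cl1 by 0.98 ± 0.14 (adjusted p = 0.00038). Of these, Cxcl16 was higher in bright PNX-dnFGFR than in bright SHAM (0.91 ± 0.22, adjusted p = 0.045, list median -0.30), with 9.97 and 10.22 against 9.19 and 9.18. Ccl11 and Ccl8 did not follow Ccl2: Ccl8 had 6.20 and 6.82 in bright SHAM and 5.73 and 6.78 in bright PNX-dnFGFR, and Ccl11 had 7.03 and 6.84 against 6.35 and 6.38. Among relatives of interleukin 6 and colony-stimulating factors, 3 of 4 tested were higher in bright cells (list median 0.75), Csf1 by 1.04, Ctf1 by 1.27 and Clcf1 by 0.45, and Kitl, the ligand of KIT, was lower (-1.24 ± 0.11, adjusted p = 2.2e-05). None of the 4 was called in PNX-dnFGFR against SHAM in the bright gate (list median 0.30).

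Upstream cytokines and sensors gave 6 higher and 2 lower of 13 tested in bright cells, with a median of 0.24. Il1r1, the signalling receptor for interleukin 1, was higher by 1.62 ± 0.16 (adjusted p = 4.2e-05) and its partner Il1rap by 0.59. Ifngr1, a chain of the interferon gamma receptor, was lower (-1.34 ± 0.13, adjusted p = 4.3e-05). In PNX-dnFGFR against SHAM in the bright gate, at a list median of 0.33, 1 was higher, Osmr (0.71 ± 0.16, adjusted p = 0.042), the receptor for oncostatin M, and 1 lower, Ifngr1 (-1.11 ± 0.23, adjusted p = 0.032). Among the ligands, Il1a and Tnf did not pass the filter, and Il1b was lower in bright cells (-0.67 ± 0.23, adjusted p = 0.036), with 4.81 to 6.16 on bright and 5.33 to 7.11 on dim arrays.

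STAT3 pathway and target genes gave 3 higher and 3 lower of 11 in bright cells (median 0.06), and 2 higher and 0 lower (median 0.34) in PNX-dnFGFR against SHAM in the bright gate. Those 2 were Timp1, an inhibitor of metalloproteinases (1.53 ± 0.33, adjusted p = 0.037), and the kinase gene Jak2 (1.01 ± 0.17, adjusted p = 0.018). Timp1 had 9.14 and 8.88 in bright SHAM, 9.77 and 10.02 in bright PNX and 10.77 and 10.32 in bright PNX-dnFGFR, and 7.12 and 6.50, 7.75 and 8.59, and 9.49 and 8.84 in the dim groups. It was the only gene of this list called higher in PNX-dnFGFR as the mean over both gates (1.94 ± 0.24, adjusted p = 0.014). 

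Interferon response genes gave 3 higher and 2 lower of 10 in bright cells (median -0.03), led by Ifit2 (-1.39 ± 0.11, adjusted p = 8.7e-06) and Gbp2 (1.29 ± 0.14, adjusted p = 7.2e-05). None of the 10 was called in PNX-dnFGFR against SHAM in the bright gate (median 0.37), nor was Cxcl10. Genes for proteins that bind cytokine mRNA and set its decay gave 3 higher and 0 lower of 6 in bright cells (median 0.24), and 0 higher and 1 lower (median 0.08) in PNX-dnFGFR against SHAM in the bright gate. Of these Zfp36l2, higher by 0.58 ± 0.07 (adjusted p = 0.00014), was lower in PNX-dnFGFR than in SHAM in the bright gate (-0.55 ± 0.12, adjusted p = 0.039). Immediate early genes, which respond to cell dissociation as well as to stimuli in the animal, gave 10 higher and 1 lower of 18 in bright cells (median 0.73), led by Klf4 (3.21 ± 0.22, adjusted p = 3.9e-06) and Myc (2.76 ± 0.24, adjusted p = 1.5e-05). Ier3 was the only one of the 18 called in PNX-dnFGFR against SHAM in the bright gate (1.47 ± 0.33, adjusted p = 0.04, list median -0.04). Their part in the signals of Cxcl1, Ccl2 and Ccl7 was not tested.

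For each of the 6 tested members, the 2 genes whose signal followed it most closely over the 12 arrays, after each gate's own mean was subtracted, were found by Pearson's r. These are the highest of many correlations over arrays in 6 groups and are given as a description. They were Sema5a (0.968) and Crybg3 (0.966) for Cxcl1, Fam162a (0.973) and Stmn2 (0.968) for Cxcl5, Rbmxl1 (0.953) and Txnl1 (0.947) for Cxcl10, Dhx32 (0.953) and Ror1 (0.949) for Ccl2, Lmcd1 (0.938) and Sting1 (0.932) for Ccl7, and Rab28 (0.937) and Snx19 (0.922) for Lif. No gene was among the closest 2 for more than 1 member.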

How the data were processed

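RNA from sorted cells was reverse transcribed and amplified for 25 cycles, per the labels' protocols, and hybridized to Affymetrix mouse arrays. The deposited values are log2 signals that the authors made with RMA, per the submitters' processing notes; the RMA version is not given in the sources used here. No further normalization was applied. Amplification can compress or widen differences, and RMA pulls low signals towards a floor. Of 45141 probe sets, 104 controls were left out, and 28898 have 1 gene, 551 several and 15588 none in the platform annotation; those with 1 gene were used, with the highest mean standing for each of 17097 genes. Array medians were 5.06 to 5.13. In R 4.3.3, limma 3.58.1 fitted 1 mean per group over all 12 arrays, with 6 residual degrees of freedom and 3.31 from its prior. Its moderated p-values were Benjamini-Hochberg adjusted across the 11073 genes tested, at a threshold of 0.05. With 2 arrays a group, precision is limited by their number, at a median residual SD of 0.199 log2. The fit takes the gates as independent samples, although they may share mice. The script was first tested on simulated data.

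The members, lists and tests were chosen with earlier results of these data known. Named genes of each list are up to 4 with the smallest adjusted p among those called between the gates and up to 4 between conditions. Others were added after their values were seen: Icam1, Nfkbiz, Tnip1, Lcn2, Il1b, Upk1b, Krt19, Upk3b, Lrrn4, S100a8, S100a9, Mpo, Mmp9, Marco, Itgax, Scgb1a1, Col1a2, Dcn, Lum, Tcf21, Msln, Il1a, Tnf, and the values of Ccl8 and Ccl11 by condition. Alternatives were no filter, a stricter filter (6.76, the 75th percentile), values below the filter set to it, a second quantile normalization, averaging all probe sets of a gene, a variance trend, fits of only the groups compared, blocks by replicate number, and leaving out each array.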

Additional observations from a re-analysis of the deposited data

Results flagged for a closer look

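Cxcl2 moved in opposite directions in the gates between PNX and PNX-dnFGFR, with both arrays of a group on the same side in each gate. In the fit with no filter the difference was 1.63 ± 0.50 (limma adjusted p = 0.26) in bright cells, from 3.66 and 3.79 to 4.34 and 6.37, and -0.37 ± 0.50 (adjusted p = 0.92) in dim cells, from 3.50 and 3.52 to 3.08 and 3.20. All values but the 2 of bright PNX-dnFGFR lay within the background range. The difference between the gates was 2.003 ± 0.71 (unadjusted p = 0.019, adjusted p = 0.63) and did not pass.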

How the results depend on the processing

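Of 411 values of the 6 tested genes under alternatives with all arrays, 397 kept direction and side of the threshold, 9 lost a call, 4 gained 1 and 1 reversed, and of 612 with 1 array left out these numbers were 550, 40, 16 and 6. With values below the filter set to it, the number of members called was 0 between the gates in SHAM, 1 in PNX and 1 for the gate difference of PNX-dnFGFR minus SHAM, and Cxcl10 between the gates turned to -0.0317. With only the groups compared it was 2 between the gates in SHAM and 1 in PNX. The deviations of same-numbered samples correlated at r between -0.092 and 0.347 over all genes, above 0.1 in 4 of 9 pairs of groups and not in the other 5. The 2 highest were in the bright gate, for SHAM with PNX-dnFGFR (0.347) and SHAM with PNX (0.288), while bright PNX with PNX-dnFGFR had 0.065. The main fit did not take the numbers to pair the samples, and an effect of replicate number within the bright gate alone was not tested. With a replicate block the count was 1 for the gate difference of PNX-dnFGFR minus SHAM, where Cxcl5 had adjusted p = 0.036. With 1 array left out, the members called between the gates were 4 to 5 as the mean, 0 to 2 in SHAM, 1 to 3 in PNX and 4 in PNX-dnFGFR. In the bright gate they were 0 to 1 for PNX against SHAM, 0 to 2 for PNX-dnFGFR against PNX and 0 to 4 for PNX-dnFGFR against SHAM. As the mean over both gates they were 0 to 2 for PNX-dnFGFR against PNX and 0 to 4 for PNX-dnFGFR against SHAM, and for the gate difference 0 to 1 for PNX-dnFGFR minus PNX and minus SHAM. Cxcl1 then ranged from -0.0364 to 2.51 for PNX against SHAM in the bright gate and from -0.0141 to 2.53 for the gate difference of PNX-dnFGFR minus PNX, Cxcl5 from -0.14 to 1.07 for PNX against SHAM in the bright gate, and Cxcl10 from -0.31 to 0.48 between the gates. Over all genes, PNX-dnFGFR against SHAM in the bright gate gave 576 calls, 5 without bright SHAM replicate 2 and 910 without either bright PNX array. As the mean over both gates it gave 221, against 119 with no filter, 401 with the stricter filter, 386 with values set to the filter and 457 with a variance trend. For PNX-dnFGFR against PNX in the bright gate 1 gene was called, against 37, 78 and 32 in the last 3 of these and 429 without bright PNX replicate 1. The cause was not tested. Signals within the background range limit what Cxcl2, Cxcl5, Il6, Il11 and Csf3 can show.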
